A study of Mus musculus with 12 samples.

Results

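Lpcat3 and 7 related lysophospholipid acyltransferases were followed through mouse livers that carried Cre on a floxed Lpcat3 background or did not. The 8 genes (Lpcat1, Lpcat2, Lpcat3, Lpcat4, Mboat1, Mboat7, Lpgat1 and Lclat1) were taken by symbol from a table of 55401 genes. The rule reads none of their measured values, but they were chosen with earlier results of these data known. All 8 were among the 15982 genes with enough counts to be tested. Bulk liver RNA of male C57BL/6 mice was sequenced in 12 libraries, 3 in each of 4 groups. LKO-HFHS livers had the genotype LPCAT3flox/flox-cre and were from mice on the HFHS diet (named in the labels as a model of steatohepatitis, its sugar given as sucrose in one place and fructose in another), and FLOX-HFHS livers had the genotype LPCAT3flox/flox on the same diet. LKO-NC livers had the Cre genotype on the control diet, and FLOX-NC livers had the floxed genotype without Cre on the control diet. All 4 groups thus shared the floxed alleles, and no group had unmodified Lpcat3. The labels give an age of 8 to 10 weeks for every mouse and 16 weeks of HFHS feeding, which is longer than that age. They name neither the promoter that drives Cre nor the exons between the lox sites, and they do not say whether libraries stem from separate animals. The p-values therefore measure the spread between these libraries, which may be technical.

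Lysophospholipid acyltransferases put a fatty acid back onto a phospholipid from which a phospholipase A has removed one. This deacylation and reacylation, the Lands cycle, sets which acyl chains a membrane carries. The enzymes come from separate families. Lpcat3, Mboat1 and Mboat7 belong to the membrane-bound O-acyltransferases, whereas Lpcat1, Lpcat2, Lpcat4, Lpgat1 and Lclat1 belong to the family of the lysophosphatidic acid acyltransferases. Lpcat3 is the main enzyme of liver that puts polyunsaturated chains such as arachidonate into phosphatidylcholine and phosphatidylethanolamine, and its gene is a target of the sterol-sensing receptor LXR.

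Total counts ran from 34951150 to 59205759 per library. The ribosomal RNA gene CT010467.1 took 5.82% to 32.7% of the total in each library. Counts were scaled by TMM, a factor that sets the bulk of genes level between libraries, and are given as CPM, the count scaled to a common library size. Of 10 hepatocyte marker genes 9 were measured, and none of them was at 0 in every library. They summed to between 44930 and 46280 CPM in LKO-HFHS livers, against 74770 to 90530 CPM in LKO-NC livers, and to between 44960 and 57720 CPM in FLOX-HFHS livers, against 50360 to 101600 CPM in FLOX-NC livers. The sums were thus lower under HFHS without overlap in LKO livers, and overlapped in FLOX livers. Fold changes are log2 values from the edgeR quasi-likelihood test over all 12 libraries, and a gene was called when its Benjamini-Hochberg adjusted p over all tested genes was under 0.05.

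Lpcat3 (ENSMUSG00000004270, mm10 chromosome 6, 124663027 to 124704418, plus strand) is the gene that the floxed alleles alter. Under the HFHS diet it had 24.96, 25.9 and 29.4 CPM in LKO livers, against 72.6, 80.6 and 75.7 CPM in FLOX livers. The 2 groups did not overlap, and the highest LKO library lay far below the lowest FLOX library. Under the control diet it had 25.4, 65.0 and 19.4 CPM in LKO livers, against 49.7, 49.9 and 61.9 CPM in FLOX livers. The library labelled LKO-NC replicate 2 went against its label, since its 65.0 CPM exceeded all 3 FLOX-NC libraries while the other 2 LKO-NC libraries lay below them. Lpcat3 RNA was thus still counted in every LKO library. The liver holds other cell types beside hepatocytes, and in bulk RNA fewer cells of a type and less RNA per cell cannot be told apart.

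**Figure D1:**
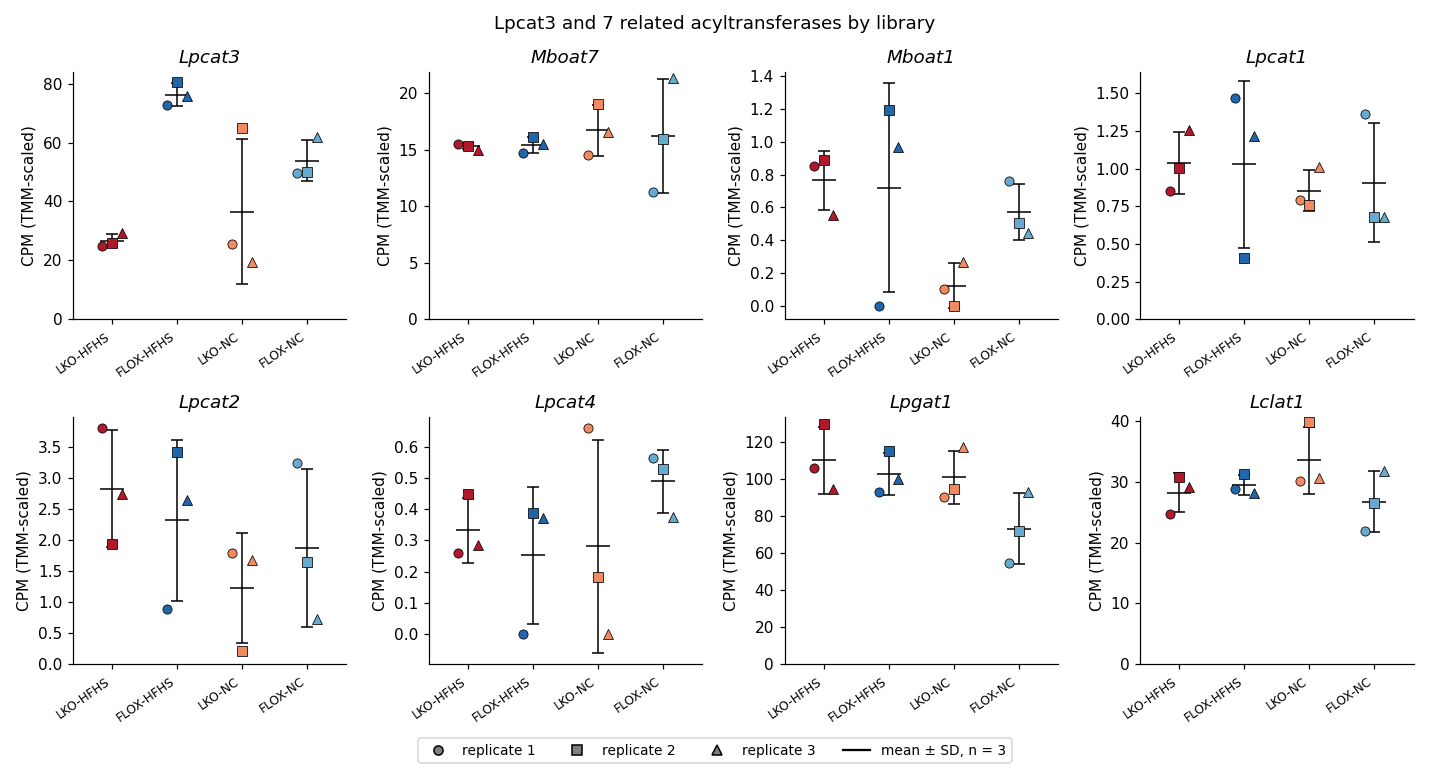
TMM-scaled CPM (vertical axis, starting at or just below 0) of the 8 acyltransferase genes in each library, by group, with symbols for the replicate number and a bar for the mean and SD of 3 libraries. Lpcat3 is below 30 CPM in 5 of the 6 LKO libraries and at 65.0 CPM in LKO-NC replicate 2, while the other genes show overlapping groups in most comparisons.

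The fitted log2 fold change of Lpcat3 under the HFHS diet was -1.51 ± 0.35 (SE), which is a level of 0.35 times that in FLOX livers with a 95% interval of 0.206 to 0.596. Its unadjusted p of 0.000948 became an adjusted p of 0.683 by the edgeR quasi-likelihood test with Benjamini-Hochberg adjustment, so Lpcat3 was not called. Under the control diet the fitted change was -0.56 ± 0.35 with an edgeR adjusted p of 0.718. Averaged over both diets it was -1.04 ± 0.25 with an unadjusted edgeR p of 0.00113 and an adjusted p of 0.515. Without the library labelled LKO-NC replicate 2, the change was -1.26 under the control diet (edgeR adjusted p = 0.147) and -1.39 over both diets (edgeR adjusted p = 0.0166). Lpcat3 was then called over both diets, in a fit that called 4 of 16878 genes (0.0237%). That library was singled out by its own Lpcat3 level, so these fits are no separate support for a change of Lpcat3. The difference of the knockout effect between the diets was -0.96 ± 0.49 with an edgeR p of 0.074 that was 0.955 once adjusted. It was -0.25 without that library.

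The main test called 0% of all genes in each of the 3 knockout comparisons (HFHS, control diet, both diets averaged), and 0% for the difference between the diets. At an unadjusted p under 0.05 it took 3.25% of genes under the HFHS diet, 7.06% under the control diet, 5.64% over both diets and 4.89% for the difference. Of the 8 acyltransferases, Lpcat3 alone passed that unadjusted level under the HFHS diet and over both diets, and 0 of 8 passed it under the control diet and for the difference. Other tools made few calls as well. DESeq2 called 0.269% of genes under the HFHS diet, 0.419% under the control diet and 0.357% over both diets. Lpcat3 was among them under the HFHS diet (log2 fold change -1.52, DESeq2 adjusted p = 0.0277) and over both diets (-1.03, DESeq2 adjusted p = 0.0341). The limma voom test with sample quality weights called 0.594% of genes under the HFHS diet, 0.00626% under the control diet and 0.0751% over both diets, with Lpcat3 among them under the HFHS diet (-1.45, limma adjusted p = 0.039). None of the other 7 acyltransferases was called in a knockout comparison by edgeR, DESeq2 or limma voom.

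Deposited counts per transcript were used to ask which Lpcat3 RNA was counted. The annotation has 9 Lpcat3 transcript models, of which 4 passed the filter. ENSMUST00000004381 is the full-length coding model of 13 exons and 2281 bases. ENSMUST00000135516 is a second full-length model, in which intron 4 of the coding model is kept, and the annotation classes it as retained intron. ENSMUST00000130020 and ENSMUST00000150597 cover only exons 10 to 13. The first of them begins inside intron 9, and the second keeps intron 10. The intron 9 bases that open ENSMUST00000130020 are not shown. The 2 introns kept whole are shown because the coding model lacks their bases. They were read from the GENCODE vM21 transcript sequences (GRCm38, the assembly also called mm10, plus strand), 5′ to 3′, with the first 2 and last 2 bases of the intron in capitals.
Lpcat3 intron 4, kept in ENSMUST00000135516, chr6:124700101-124700240: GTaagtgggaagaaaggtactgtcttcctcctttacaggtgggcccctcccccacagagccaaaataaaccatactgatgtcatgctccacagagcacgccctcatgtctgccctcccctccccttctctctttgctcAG
Lpcat3 intron 10, kept in ENSMUST00000150597, chr6:124703154-124703226: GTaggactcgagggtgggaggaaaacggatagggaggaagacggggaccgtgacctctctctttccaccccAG
Both stretches open with GT and end with AG, the letters of a common splice pair, and they are 140 and 73 bases long.

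**Figure D2:**
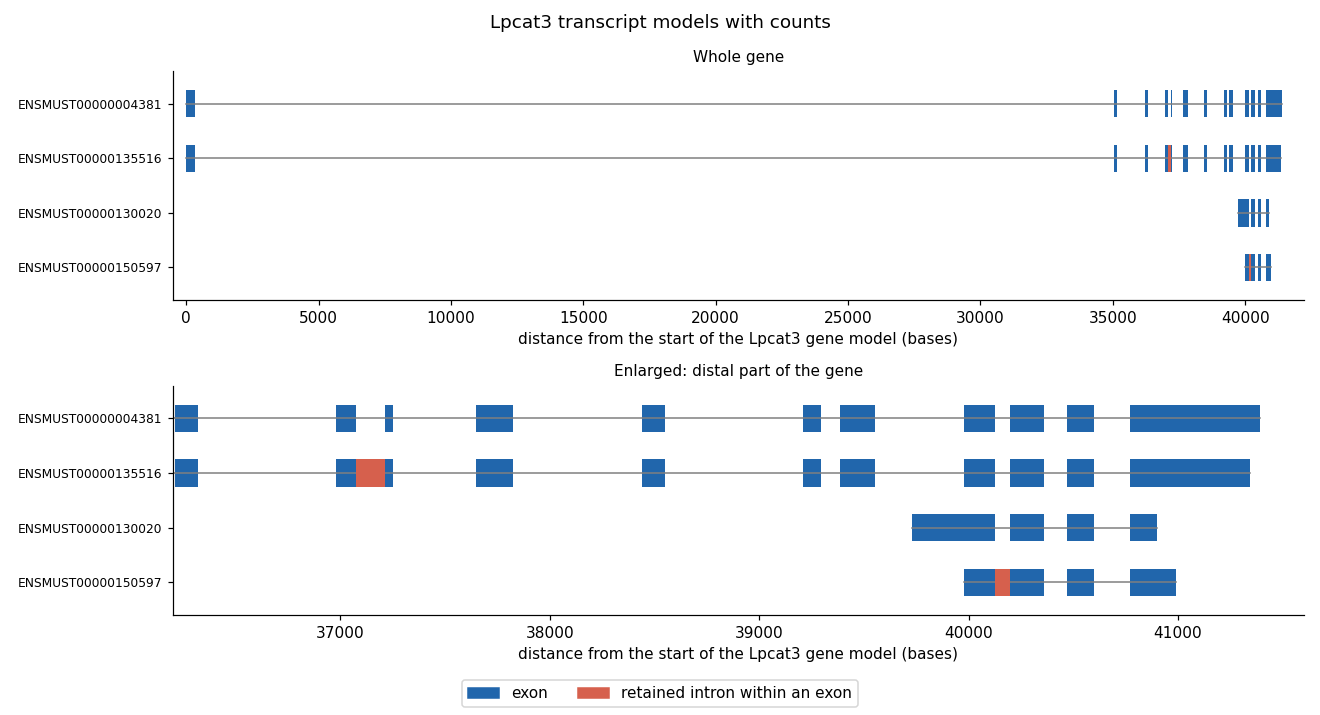
Exons (blue boxes) and retained introns (red) of the 4 Lpcat3 transcript models that passed the filter, drawn by distance in bases from the start of the gene model. The 2 full-length models differ by the 140 retained bases and slightly at the 3′ end, and the 2 short models lie at the 3′ end of the gene.

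The 2 full-length models took turns rather than sharing a library. ENSMUST00000135516, with intron 4 kept, had 100% of the full-length counts in LKO-HFHS replicates 1 and 2, 95% in FLOX-HFHS replicate 1 and 96.5% in FLOX-NC replicate 3. In the other 8 libraries its share was between 0 and 0.368%. Libraries of both genotypes and both diets stood on each side of this split, and all 3 LKO-NC libraries were on the low side. The counts per transcript are estimates from coverage of overlapping models, and the 140 bases of intron 4, beside a shift at the 3′ end, are all that sets these 2 models apart. The test over all transcripts called neither model, with an edgeR log2 fold change under HFHS of -2.74 ± 2.36 for the coding model. Across the members 13 transcripts were tested and none was called in the 3 knockout comparisons. That test called 0% of all 30986 transcripts under the HFHS diet and 0.0258% of them both under the control diet and over both diets.

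The 2 full-length models were therefore summed, a grouping chosen after their values were seen, and so were the 2 models of the 3′ end. These CPM values were scaled over transcripts and differ slightly from the gene values above. Full-length Lpcat3 had 16.6, 26.8 and 24.04 CPM in LKO-HFHS livers, against 51.7, 84.1 and 73.8 CPM in FLOX-HFHS livers. Under the control diet it had 14.7, 63.5 and 15.3 CPM in LKO livers, against 40.6, 37.6 and 51.0 CPM in FLOX livers. The 2 genotypes were apart under the HFHS diet, and under the control diet only the library labelled LKO-NC replicate 2 lay above the FLOX libraries. Over both diets the mean was 26.8 ± 18.6 CPM in LKO livers and 56.5 ± 18.6 CPM in FLOX livers (SD, n = 6 each; exact permutation test, two-sided p = 0.0238, adjusted p = 0.214 over 9 such tests). Without LKO-NC replicate 2, a library set apart by its own Lpcat3 level, the LKO mean was 19.5 CPM. The genotypes then did not overlap. The unadjusted exact permutation p of 0.00433 without it follows from that choice and is no separate support.

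The 3′ models behaved differently from library to library and did not separate the genotypes. They had 7.54, 1.57 and 7.47 CPM in LKO-HFHS livers, against 15.3, 2.15 and 1.98 CPM in FLOX-HFHS livers. They had 8.97, 2.34 and 5.27 CPM in LKO-NC livers, against 3.83, 9.40 and 13.4 CPM in FLOX-NC livers. The groups overlapped under both diets, and the means over both diets were 5.53 ± 3.02 CPM in LKO livers and 7.68 ± 5.86 CPM in FLOX livers (SD, n = 6 each; two-sided exact permutation p = 0.429, adjusted p = 0.643). As a share of Lpcat3 counts the 3′ models made up 21.2% ± 13.8 in LKO livers and 12.8% ± 9.38 in FLOX livers (two-sided exact permutation p = 0.225, adjusted p = 0.506). Within a diet 3 libraries against 3 cannot give a p below 0.1, the value that full-length Lpcat3 reached under HFHS. Without LKO-NC replicate 2 the share was 24.7% in LKO livers and 12.8% in FLOX livers (two-sided exact permutation p = 0.0909 before adjustment). The share is taken of Lpcat3 counts, by which that library was set apart, so this is no separate test either.

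**Figure D3:**
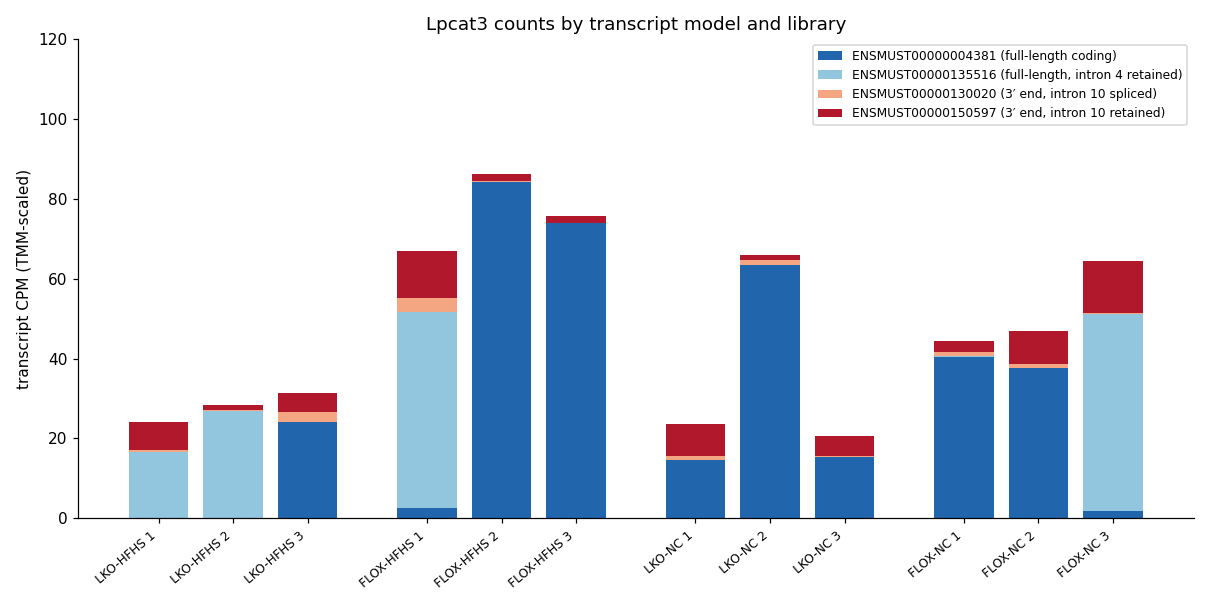
Stacked bars of TMM-scaled CPM for the 4 Lpcat3 transcript models in each of the 12 libraries. Either the coding model (dark blue) or the model with intron 4 kept (light blue) holds nearly all full-length counts of a library, and the 3′ models (orange and red) reach 15.3 CPM.

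The last exon of Lpcat3 overlaps Emg1, a gene for a ribosome biogenesis factor on the opposite strand, by 334 bases. Emg1 averaged 1971 counts per library. The strand setting of the authors' counting is not given in the sources used here, so reads in that stretch may have been credited to either gene. Emg1 itself had an edgeR log2 fold change of -0.44 ± 0.17 under HFHS (adjusted p = 1) and -0.01 ± 0.17 under the control diet. Both short 3′ models end before that stretch and only the full-length models reach it, and its part in their counts was not tested. FPKM, the deposited value that divides a count by transcript length and library size, weights short models more. On that scale Lpcat3 had 14.5, 12.5 and 22.8 FPKM in LKO-HFHS livers, against 24.9, 31.5 and 29.8 FPKM in FLOX-HFHS livers. The groups again did not overlap, but the 3′ models held 59.3%, 15.4% and 47.6% of the LKO-HFHS values, against 47.3%, 7.16% and 7.52% of the FLOX-HFHS values.

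FPKM also allows the 8 genes to be ordered by level per length. In FLOX livers Lpcat3 had the highest level, with 28.8 ± 3.45 FPKM under HFHS and 25.3 ± 8.90 FPKM under the control diet (SD, n = 3 each). Lpgat1, which acylates lysophosphatidylglycerol and lysophosphatidylethanolamine, came next with 10.8 ± 3.41 FPKM in FLOX-HFHS and 8.23 ± 3.38 FPKM in FLOX-NC livers. Every FLOX library had more Lpcat3 than any FLOX library of its diet had Lpgat1. This order counts the 3′ models, which held 47.3% of the Lpcat3 value in FLOX-HFHS replicate 1. By its full-length models alone, that library lay below the 13.6 FPKM of Lpgat1 in FLOX-HFHS replicate 2. In FLOX-NC livers the full-length models alone kept the order. In LKO livers Lpcat3 was at 16.6 ± 5.46 FPKM under HFHS and 17.8 ± 7.11 FPKM under the control diet, and Lpgat1 was at 15.4 ± 3.12 and 11.9 ± 2.28 FPKM. With all Lpcat3 models counted, the libraries of the 2 genes overlapped in both LKO groups, so their order there is not settled. By its full-length models alone, Lpcat3 lay below Lpgat1 without overlap in LKO-HFHS livers, at 5.87 to 11.7 against 12.2 to 18.5 FPKM. In LKO-NC livers the 2 genes overlapped on that measure too.

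Lclat1 and Mboat7 formed the next level. Lclat1, which acylates lysocardiolipin and lysophosphatidylinositol, had 5.63 ± 1.48 FPKM over the 12 libraries, and Mboat7, which puts arachidonate into phosphatidylinositol, had 4.70 ± 1.26 FPKM. These 2 genes overlapped in every group. Lpcat2, known for making platelet-activating factor in inflammatory cells, followed with 0.644 ± 0.400 FPKM. Lpcat1, which makes dipalmitoyl phosphatidylcholine in lung surfactant, had 0.222 ± 0.0977 FPKM, Lpcat4 had 0.174 ± 0.124 FPKM, and Mboat1, which acylates lysophosphatidylserine and lysophosphatidylethanolamine, had 0.162 ± 0.120 FPKM. The ranges of these 4 genes overlapped, and Lpcat4 and Mboat1 were each listed at 0 in 2 libraries.

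The question put to the 7 relatives was whether any was higher where Lpcat3 was lower. None was called in a knockout comparison, where edgeR called 0% of all genes. Under the HFHS diet 5 of 7 had a positive fold change, with a median of 0.06 against 0.02 over all tested genes. Under the control diet 3 of 7 were positive, with a median of -0.08 against -0.05 over all genes. Over both diets 3 of 7 were positive, with a median of -0.02 against -0.02. Without a scaling factor, which moved the median of all genes by 0.44 under HFHS, Mboat7 (0.42) and Lclat1 (0.39) were positive there too, and each of the 7 was below 1 on the log2 scale. The width of the intervals differed greatly between the genes.

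**Figure D4:**
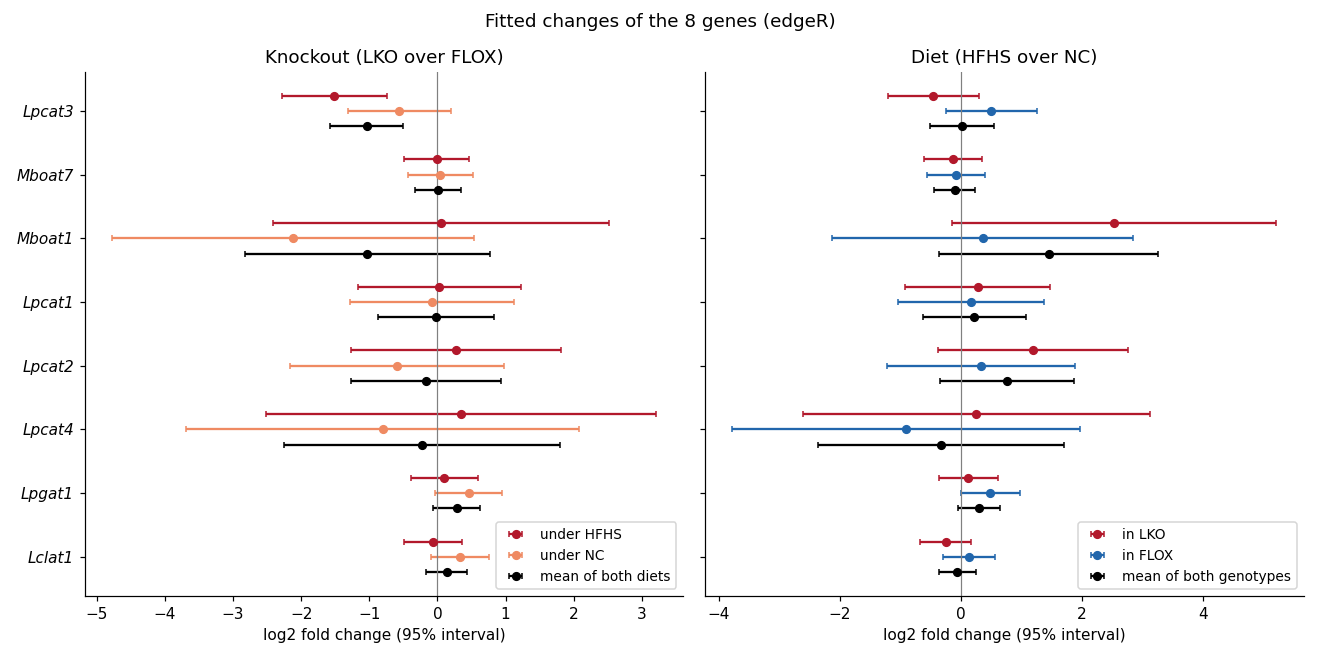
Log2 fold changes with 95% intervals from the edgeR fit for the 8 genes (rows), for knockout on the left panel and diet on the right. The interval of Lpcat3 lies below 0 under HFHS and over both diets, those of Mboat7, Lpgat1 and Lclat1 are narrow and cross 0, and those of Mboat1 and Lpcat4 are several log2 units wide.

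Among the O-acyltransferases, Mboat7 (chromosome 7, 3677789 to 3693523, minus strand) had like levels in both genotypes. It had 15.5, 15.4 and 14.99 CPM in LKO-HFHS livers, against 14.7, 16.1 and 15.5 CPM in FLOX-HFHS livers. It had 14.5, 19.0 and 16.5 CPM in LKO-NC livers, against 11.2, 16.0 and 21.4 CPM in FLOX-NC livers. The groups overlapped under both diets, and the knockout change over both diets was 0.01 ± 0.16, a fold of 1.01 with a 95% interval of 0.799 to 1.28. Its first bases overlap Tsen34 on the opposite strand by 661 bases, and Tsen34 averaged 700 counts per library. Mboat1 (chromosome 13, 30136489 to 30246717, plus strand) rested on very few reads. It had 36, 59 and 39 counts in LKO-HFHS livers, against 0, 71 and 47 counts in FLOX-HFHS livers. It had 4, 0 and 15 counts in LKO-NC livers, against 23, 23 and 25 counts in FLOX-NC livers. The control-diet groups did not overlap, with LKO below FLOX, and the fitted change there was -2.12 ± 1.23 (edgeR adjusted p = 0.717), or -1.56 without the library labelled LKO-NC replicate 2, which is one with 0 counts.

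Of the genes compared, 8.56% had groups that did not overlap under the control diet and 11.4% under the HFHS diet. Mboat1 was the single acyltransferase of the 8 in the first set, and Lpcat3 the single one in the second. A share of 1 in 8 is close to both values.

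Among the lysophosphatidic acid acyltransferase family, Lpgat1 (chromosome 1, 191717834 to 191784255, plus strand) had the most counts. It had 106, 130 and 94.3 CPM in LKO-HFHS livers, against 92.8, 115 and 99.9 CPM in FLOX-HFHS livers. It had 90.4, 94.8 and 117 CPM in LKO-NC livers, against 54.6, 71.7 and 93.0 CPM in FLOX-NC livers. Both pairs of groups overlapped, under the control diet by FLOX-NC replicate 3 alone, which lay above LKO-NC replicate 1. The control-diet change of 0.46 ± 0.23 had an unadjusted edgeR p of 0.0625 and an adjusted p of 0.708. Over both diets it was 0.28 ± 0.16, a fold of 1.22 with a 95% interval of 0.956 to 1.55, and it was 0.31 without the library labelled LKO-NC replicate 2. FLOX-NC replicate 1, the lowest library for Lpgat1, was also the one with the largest ribosomal RNA share (32.7%). Without it the control-diet change of Lpgat1 was 0.30, and with that share as a covariate it was 0.36.

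Lclat1 (chromosome 17, 73107985 to 73243368, plus strand) had 24.8, 30.9 and 29.2 CPM in LKO-HFHS livers, against 28.8, 31.3 and 28.3 CPM in FLOX-HFHS livers. It had 30.1, 39.9 and 30.7 CPM in LKO-NC livers, against 21.9, 26.5 and 31.8 CPM in FLOX-NC livers. The highest value was in LKO-NC replicate 2, the library that also had the high Lpcat3, and the groups overlapped under both diets. Over both diets the change was 0.13 ± 0.14, a fold of 1.1 with a 95% interval of 0.891 to 1.35. Without that library it was 0.07.

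Lpcat2 (chromosome 8, 92855339 to 92919279, plus strand) had 3.81, 1.94 and 2.75 CPM in LKO-HFHS livers, against 0.888, 3.42 and 2.65 CPM in FLOX-HFHS livers. It had 1.79, 0.210 and 1.68 CPM in LKO-NC livers, against 3.25, 1.65 and 0.732 CPM in FLOX-NC livers. The genotypes overlapped on each diet. The lowest value belonged to LKO-NC replicate 2, and the knockout change over both diets was -0.16 ± 0.51 with that library and 0.09 without it. Its 95% interval ran from a fold of 0.417 to 1.91.

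Lpcat1 (chromosome 13, 73467197 to 73516422, plus strand) had between 24 and 88 counts in a library. It had 0.852, 1.01 and 1.26 CPM in LKO-HFHS livers, against 1.47, 0.404 and 1.21 CPM in FLOX-HFHS livers. It had 0.791, 0.761 and 1.01 CPM in LKO-NC livers, against 1.36, 0.682 and 0.679 CPM in FLOX-NC livers. The genotypes overlapped under both diets, and its change over both diets was -0.02 ± 0.39 (fold 0.984, 95% interval 0.546 to 1.77). Lpcat4 (chromosome 2, 112239468 to 112247111, plus strand), an acyltransferase for lysophosphatidylcholine and lysophosphatidylethanolamine, had 11, 30 and 20 counts in LKO-HFHS livers, against 0, 23 and 18 counts in FLOX-HFHS livers. It had 25, 7 and 0 counts in LKO-NC livers, against 17, 24 and 21 counts in FLOX-NC livers. Here too the genotypes overlapped under both diets. Its interval over both diets ran from a fold of 0.209 to 3.48. At such depth a change of these 2 genes that lies within their interval was not detectable.

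The same test called more genes for the diet than for the genotype, but none of the 8 acyltransferases was called for it. The HFHS diet changed 3.75% of genes in LKO livers, 2.90% in FLOX livers and 11.1% over both genotypes. At an unadjusted p under 0.05 these shares were 18.1%, 17.7% and 26.5%, and 0 of the 8 genes passed in any of the 3. Groups that did not overlap by diet were seen for 29.9% of genes in LKO livers and 19.6% in FLOX livers, and for 2 of the 8 genes (Lpcat2, Mboat1) in LKO livers and 1 of 8 (Lpcat3) in FLOX livers.

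Lpcat3 itself was higher under the HFHS diet in each FLOX library, with 72.6, 80.6 and 75.7 CPM in FLOX-HFHS livers, against 49.7, 49.9 and 61.9 CPM in FLOX-NC livers. The fitted change was 0.50 ± 0.35 (edgeR adjusted p = 0.493). In LKO livers it was -0.45 ± 0.35 (edgeR adjusted p = 0.562), and 0.25 without the library labelled LKO-NC replicate 2, so the direction in LKO livers rests on that library. Lpgat1 had a diet change of 0.49 ± 0.23 in FLOX livers, with an adjusted edgeR p of 0.284 (0.0511 unadjusted), and of 0.13 ± 0.23 in LKO livers.

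Lpcat2 had a diet change of 1.20 ± 0.73 in LKO livers (edgeR adjusted p = 0.436), or 0.70 without the library labelled LKO-NC replicate 2, and of 0.33 ± 0.72 in FLOX livers. Over both genotypes limma voom called it at 1.25 (limma adjusted p = 0.037), in a test that called 30.5% of all genes, whereas edgeR gave 0.76 ± 0.51 and an adjusted p of 0.376. Markers of monocyte-derived macrophages and other leukocytes summed to between 222 and 317 CPM in LKO-HFHS livers, against 52.2 to 63.8 CPM in LKO-NC livers. They summed to between 104 and 325 CPM in FLOX-HFHS livers, against 51.2 to 71.5 CPM in FLOX-NC livers. Of these 16 marker genes, 9 were called higher by edgeR under the HFHS diet over both genotypes, where it called 11.1% of all genes. So were 7 of 10 Kupffer cell markers. Within a genotype, 8 of the 16 were called higher in LKO livers (3.75% of all genes called) and 1 in FLOX livers (2.90%). Of the Kupffer cell markers 4 were called higher in LKO livers and 4 in FLOX livers. The Kupffer cell markers summed to between 159 and 189 CPM in LKO-HFHS livers, against 54.7 to 88.5 CPM in LKO-NC livers, and to between 145 and 268 CPM in FLOX-HFHS livers, against 54.6 to 114 CPM in FLOX-NC livers. The hepatocyte marker sums given above were lower under the same diet without overlap in LKO livers, and overlapped in FLOX livers. Over both genotypes 4 of the 9 hepatocyte markers were called lower, against 11.1% of all genes called in either direction. In LKO livers 2 were called lower, and in FLOX livers 1 was. The part of these cell types in the Lpcat2 counts was not tested, nor in the other diet values. In the 3 knockout comparisons no marker gene of any list was called. As edgeR called 0% of all genes there, this cannot tell whether cell types differed between the genotypes.

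Mboat1 had a diet change of 2.54 ± 1.24 in LKO livers, with an unadjusted edgeR p of 0.061 and an adjusted p of 0.306, where LKO-NC livers held 4, 0 and 15 counts. It was 1.99 without the library labelled LKO-NC replicate 2, and 0.36 ± 1.15 in FLOX livers. The other 4 members had diet changes between -0.90 (Lpcat4 in FLOX livers) and 0.28 (Lpcat1 in LKO livers). For Mboat7 they were -0.13 ± 0.22 in LKO and -0.07 ± 0.22 in FLOX livers.

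The genes around the acyltransferases were read from 4 lists, which were chosen with earlier results of these data known. Genes of a list also share the same libraries, so counts within the lists are descriptions and no test of a list. None of their genes was called by edgeR in a knockout comparison, where it called 0% of all genes. For the supply of acyl chains, which holds acyl-CoA synthetases, acyl-CoA binding proteins, desaturases and elongases, 15 of 15 genes were tested. Over both diets 6 of the 15 had an unadjusted edgeR p under 0.05, all of them positive, against 5.64% of all genes at that level, and the list median was 0.32 against -0.02 over all genes. They were Fads1, Fads2, Elovl2, Elovl5, Dbi and Acbd3, named because they make up that count. Fads2, the delta-6 desaturase that starts the making of long polyunsaturated chains, had 230, 594 and 418 CPM in LKO-HFHS livers, against 118, 165 and 139 CPM in FLOX-HFHS livers. These groups did not overlap, and the change was 1.56 ± 0.32 with an unadjusted edgeR p of 0.000355 and an adjusted p of 0.578. DESeq2 called it at 1.55 (DESeq2 adjusted p = 0.00278) and limma voom at 1.57 (limma adjusted p = 0.00949). Under the control diet Fads2 had 225, 156 and 194 CPM in LKO livers, against 93.9, 129 and 157 CPM in FLOX livers. Those groups overlapped, with a change of 0.598 ± 0.317.

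Elovl5, which elongates polyunsaturated chains, had 614, 503 and 612 CPM in LKO-NC livers, against 201, 240 and 345 CPM in FLOX-NC livers. The groups did not overlap, with a change of 1.14 ± 0.36 (edgeR adjusted p = 0.678), or 1.23 without the library labelled LKO-NC replicate 2. Under HFHS Elovl5 had 747, 1794 and 1322 CPM in LKO livers, against 489, 1098 and 713 CPM in FLOX livers. Those groups overlapped, with a change of 0.747 ± 0.355. Fads1, the delta-5 desaturase, had a change of 1.08 ± 0.40 under HFHS and of 0.49 ± 0.40 under the control diet. These genes share the 12 libraries with Lpcat3, so their opposite sign is a description of the same samples.

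**Figure D5:**
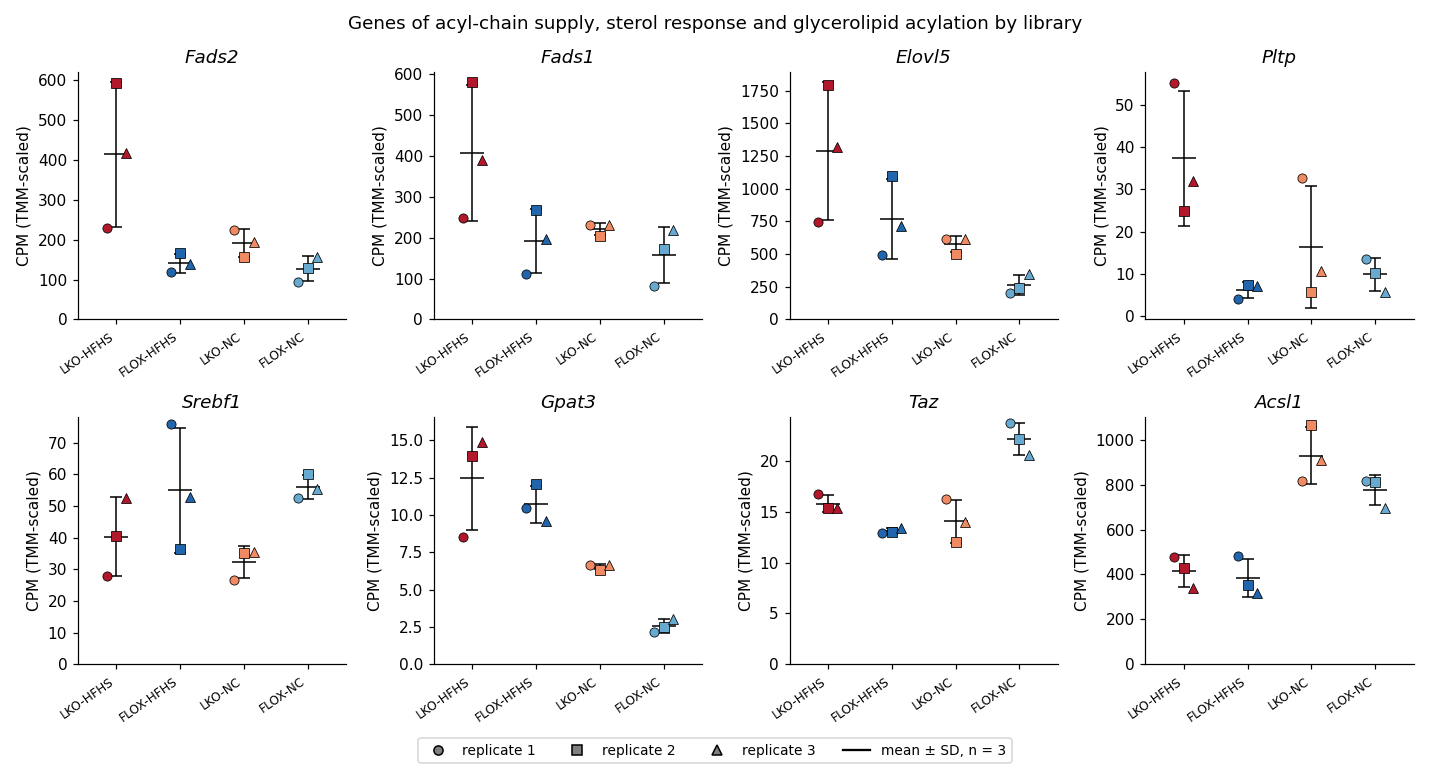
TMM-scaled CPM (vertical axis) by library and group for 8 genes around the acyltransferases, with the mean and SD of 3 libraries. LKO-HFHS lies above FLOX-HFHS in every library for Fads2 and Pltp, and LKO-NC lies above FLOX-NC for Elovl5 and Gpat3.

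In the list of LXR and sterol response, 15 of 15 genes were tested, and 1 passed an unadjusted p of 0.05 under HFHS, against 3.25% of all genes. This was Pltp, the plasma phospholipid transfer protein and an LXR target, with 55.1, 24.8 and 32.0 CPM in LKO-HFHS livers, against 4.09, 7.32 and 7.08 CPM in FLOX-HFHS livers. All LKO-HFHS libraries were higher, by 2.59 ± 0.58 with an adjusted edgeR p of 0.609 (0.000638 unadjusted), and DESeq2 called it (DESeq2 adjusted p = 0.00278). Under the control diet Pltp had 32.7, 5.65 and 10.6 CPM in LKO livers, against 13.5, 10.3 and 5.81 CPM in FLOX livers, and the groups overlapped. Srebf1, which drives fatty acid synthesis and is itself an LXR target, had 26.6, 35.1 and 35.4 CPM in LKO-NC livers, against 52.5, 60.0 and 55.3 CPM in FLOX-NC livers, a change of -0.79 ± 0.28 (edgeR adjusted p = 0.678), or -0.85 without the library labelled LKO-NC replicate 2. Over both diets the list median was -0.06 against -0.02 over all genes.

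Of 16 other acyltransferases listed, 13 were tested. Under the control diet 4 of them passed an unadjusted p of 0.05, 2 with a positive change, against 7.06% of all genes. Gpat3, a glycerol-3-phosphate acyltransferase that starts glycerolipid synthesis, had 6.65, 6.33 and 6.63 CPM in LKO-NC livers, against 2.12, 2.51 and 3.05 CPM in FLOX-NC livers. The groups were far apart, and the change was 1.35 ± 0.25 with an adjusted edgeR p of 0.345 (0.00013 unadjusted), and DESeq2 called it at 1.34 (DESeq2 adjusted p = 0.000871). Taz, here tafazzin, which remodels cardiolipin, had 16.2, 12.02 and 13.9 CPM in LKO-NC livers, against 23.8, 22.1 and 20.5 CPM in FLOX-NC livers, a change of -0.65 ± 0.17 (edgeR adjusted p = 0.664). DESeq2 called this change too (DESeq2 adjusted p = 0.0192). Limma voom, which called 0.00626% of genes under the control diet, called neither Gpat3 nor Taz there. Without the library labelled LKO-NC replicate 2 the changes were 1.37 for Gpat3 and -0.55 for Taz. Under HFHS Gpat3 had 8.50, 13.9 and 14.9 CPM in LKO livers, against 10.5, 12.1 and 9.61 CPM in FLOX livers, and these groups overlapped. The Gpat3 change differed between the diets by -1.13 ± 0.35 (edgeR adjusted p = 0.955, 0.00614 unadjusted). Under HFHS Taz was at 0.27 ± 0.17. The Taz change differed between the diets by 0.92 ± 0.24 (edgeR adjusted p = 0.917, 0.00221 unadjusted). DESeq2 called that difference (0.92, DESeq2 adjusted p = 0.0315), in a test that called 33 of 15982 genes, and limma voom called 0 genes for it. Of 29 phospholipases, lysophospholipases and related enzymes listed, 28 were tested. Over both diets 1 of them passed an unadjusted edgeR p of 0.05 (Gde1, 0.31 ± 0.14), no larger a share than the 5.64% of all genes. The median was 0.06 against -0.02 over all genes.

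Genes whose level followed Lpcat3 most closely were sought among 11683 genes with a mean of at least 1 CPM, by Pearson correlation of log2 CPM over the 12 libraries. The highest were Anks4b (0.90), Pcp4l1 (0.86), Klhdc7a (0.84), Tsc22d1 (0.84) and Diaph2 (0.82), and the lowest included Atf3 (-0.93) and Ints2 (-0.86). Each value is a description over libraries that share genotype, diet and depth. Atf3, a stress-induced transcription factor, averaged 7.78 CPM in LKO-HFHS and 2.91 CPM in FLOX-HFHS livers. It averaged 9.55 CPM in LKO-NC and 2.94 CPM in FLOX-NC livers. With group means taken out, the highest were Mkrn2 (0.928), Anks4b (0.916), Slc1a4 (0.912), Rgs12 (0.899) and P2ry2 (0.894). The lowest were 1700017B05Rik (-0.969), Atf3 (-0.965) and Dusp5 (-0.96), so Anks4b and Atf3 stood in both rankings. Both rankings use the same libraries. Within groups Lpcat3 varied most in LKO-NC livers, with an SD of 24.8 CPM against at most 6.98 CPM in the other groups. The within-group values thus rest largely on LKO-NC replicate 2, and they were not computed without it.

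Over the 12 libraries the relatives' correlation with Lpcat3 was -0.30 for Lpcat2, 0.17 for Mboat7, -0.27 for Lpgat1 and 0.15 for Lclat1, and Lpcat1, Lpcat4 and Mboat1 were below 1 CPM on average and left out. With group means taken out they were -0.74 for Lpcat2, 0.43 for Mboat7, -0.09 for Lpgat1 and 0.68 for Lclat1. The library labelled LKO-NC replicate 2 held the highest Lclat1 and the lowest Lpcat2 of all libraries, and over the other 11 libraries the correlations, with group means left in, were -0.18 for Lpcat2 and -0.02 for Lclat1.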

How the data were processed

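The members, the gene lists and the tests were chosen with earlier results of these data known. The tools named per the submitters' processing notes, without versions or their order, are HISAT2, StringTie, edgeR, cutadapt and FastQC, the genome build is mm10, and the labels name a stranded kit without its settings. The authors deposited estimated counts per gene and per transcript, which are whole numbers with no normalization. Each gene count is the sum of its transcript counts. The deposited FPKM values per transcript matched counts divided by length within each library, as checked for transcripts above a minimum count. FPKM values per gene were not checked in this way. The test planned for counts was kept for these estimated counts, and rounding changed none.

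Genes were kept with filterByExpr, scaled with TMM and fitted in 1 model of 4 groups (edgeR 4.0.16, limma 3.58.1, DESeq2 1.42.0, R 4.3.3), tested on simulated data first. Averages over diets or genotypes and the difference of effects are contrasts of that model, and 95% intervals come from its SE. Transcript sums were compared by exact permutation tests. All 8 members were named in every library. For each list and comparison up to 4 called genes of smallest p were named, or else the 2 of smallest p. For likeness to Lpcat3 the 5 highest and 3 lowest correlations were named, from log2 CPM with a prior count of 2. Some genes that this rule names are left out of the text.

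Libraries of 1 group never agreed within counting noise (chi-square per gene of at least 85.5). The replicate numbers come from the sample titles. Deviations of same-numbered libraries from their group means correlated by over 0.1 in all 3 pairs of the diet comparison in LKO livers (0.101 to 0.294). Elsewhere only some pairs did. The numbers were therefore treated as a possible pairing of those libraries, which the labels do not state. The main fit does not use it, and a block for the replicate number is among the alternatives. The alternatives were RLE factors, no scaling, no filter, a filter of 1 CPM in 3 libraries, DESeq2, only the groups compared, the block, each library left out, limma on log2(FPKM + 0.1) for genes with a mean of at least 0.1, limma voom with quality weights, and removal of ribosomal RNA and mitochondrial genes. Leaving out the 4 libraries numbered 1, the ribosomal RNA share as a covariate and the sums of Lpcat3 transcripts were added after seeing the data. No column of the tables was without a sample.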

Additional observations from a re-analysis of the deposited data

How the results depend on the processing

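In all 71 alternative fits of the 3 knockout comparisons Lpcat3 kept a negative sign, from -1.61 to -0.83 under HFHS, -1.26 to -0.22 under the control diet and -1.39 to -0.67 over both diets. It was called under HFHS by DESeq2 (-1.52) and limma voom (-1.45), and over both diets by DESeq2 (-1.03) and without LKO-NC replicate 2, where single libraries left out gave -1.39 to -0.87. That library was singled out by its own Lpcat3 level, so the call without it is no separate support. Leaving out any other single library gave no call of Lpcat3. Over the alternatives the adjusted p of Lpcat3 ran from 0.0277 to 1 under HFHS and from 0.0166 to 1 over both diets. The diet change of Lpcat3 in LKO livers ran from -0.78 to 0.25 over the libraries left out, and over both genotypes from -0.13 to 0.38, and it was -0.06 without the 4 libraries numbered 1. The cause of these changes was not tested. Without a scaling factor the median of all genes under HFHS moved by 0.44 and Lpcat3 was at -1.06, and in FPKM the median moved by 0.42 and Lpcat3 was at -0.83. In the fit with a replicate block, Lpcat3 was at -1.50 under HFHS and -1.08 over both diets (edgeR adjusted p = 0.306 and 0.141), and the block changed no call of a member. Over all genes the calls for the diet were 1118 with the block and 599 without it in LKO livers, 1257 and 464 in FLOX livers, and 2921 and 1776 over both genotypes, and over all alternatives they ran from 220 to 2401, 111 to 2986 and 1025 to 4871. The count of other members called was 0 in every alternative but limma voom for the diet over both genotypes, where it was 1 (Lpcat2). Of 1148 alternative values of the 7 other members 95 changed sign, none of them with an unadjusted p under 0.05 on either side, and the largest main value among these was 0.87 in size. Of 1432 alternative values of the named list genes, 1261 kept direction and call, 129 lost and 35 gained a call, and 7 changed sign. As a share of FPKM the 3′ models of Lpcat3 held 41.2% in LKO livers and 28.7% in FLOX livers (exact permutation p = 0.292). Without LKO-NC replicate 2 Atf3 was again least like Lpcat3 (-0.932) and Gbp10 most like it (0.891), and by Spearman's rho these were Ints2 (-0.888) and Anks4b (0.902). Lpcat4 had no value under the filter of 1 CPM in 3 libraries, and fits of only the groups compared give none for averages and differences. Depth limits Lpcat1, Lpcat4 and Mboat1, with at most 88, 30 and 71 counts in a library.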

Other observations

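Outside the 8 acyltransferases, counts of called genes in the 4 lists are given for the HFHS diet over both genotypes, where edgeR called 11.1% of all genes. The hepatocyte marker sums averaged 45600 CPM in LKO-HFHS livers, against 80980 CPM in LKO-NC livers, and 51150 CPM in FLOX-HFHS livers, against 74570 CPM in FLOX-NC livers. The leukocyte marker sums averaged 273 CPM in LKO-HFHS livers, against 56.5 CPM in LKO-NC livers, and 211 CPM in FLOX-HFHS livers, against 61.2 CPM in FLOX-NC livers. The part of these cell types in the values below was not tested.

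Of 13 other acyltransferases, edgeR called 3 higher and 2 lower. Gpat3 rose by 1.49 ± 0.18 (edgeR adjusted p = 0.000221), with 8.50, 13.9 and 14.9 CPM in LKO-HFHS livers, against 6.65, 6.33 and 6.63 CPM in LKO-NC livers, and with 10.5, 12.1 and 9.61 CPM in FLOX-HFHS livers, against 2.12, 2.51 and 3.05 CPM in FLOX-NC livers. Gpam, the mitochondrial glycerol-3-phosphate acyltransferase, rose by 0.92 ± 0.16 (edgeR adjusted p = 0.00342). The lower calls were Gpat4 (-0.63), an enzyme of the same step in the endoplasmic reticulum, and Aup1 (-0.55). Neither was called without a scaling factor (adjusted p = 0.106 for Gpat4 and 0.176 for Aup1), in FPKM by limma (0.107 and 0.315), without LKO-HFHS replicate 3 (0.0551 and 0.0676) or without FLOX-HFHS replicate 3 (0.0515 and 0.0639).

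Among 15 genes of acyl chain supply 2 were called higher and 2 lower. Elovl5 rose by 1.36 ± 0.25 (edgeR adjusted p = 0.00463), and Acsl1, the main acyl-CoA synthetase of liver, fell by 1.09 on the log2 scale (edgeR adjusted p = 0.00109). Acsl1 had 476, 429 and 338 CPM in LKO-HFHS livers, against 815, 1065 and 908 CPM in LKO-NC livers. Acbd3, the other higher gene (0.52), was no longer called without a scaling factor, in FPKM or without any 1 of 9 of the libraries. The other lower gene, Acsl6, was at 0 in all 6 HFHS libraries and below 1 CPM in the others.

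Of 28 phospholipases, lysophospholipases and related enzymes 3 were called lower and none higher, a share near that of all genes. They were Lcat (-0.83), Lipc (-0.78) and Pla1a (-0.97). Without a scaling factor Lcat (adjusted p = 0.0547) and Lipc (0.08) were not called, and in FPKM none of the 3 was. The block gave 1 gene of this list higher and 4 lower, and limma voom 2 higher and 6 lower. Of 15 LXR and sterol genes 3 were called higher, namely Abcg1, a sterol exporter (1.18 ± 0.24), Scd1, the stearoyl-CoA desaturase (2.12 ± 0.44), and Lpl (0.89). Lpl was no longer called without a scaling factor (adjusted p = 0.0564), in FPKM (0.101) or without any 1 of 6 of the libraries.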
